A study of Mus musculus with 25 samples.

Results

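The transcripts described here are those of 7 genes that mark or serve gonadotrophs, the anterior pituitary cells that secrete luteinizing hormone (LH) and follicle-stimulating hormone (FSH). *Cga* encodes the alpha subunit of both hormones, *Lhb* and *Fshb* encode their beta subunits, *Gnrhr* encodes the receptor for gonadotropin-releasing hormone (GnRH), *Nr5a1* and *Gata2* encode transcription factors, and *Tgfbr3l* encodes a membrane co-receptor for inhibin B. The genes were chosen by name, and all 7 were found among the 15315 genes listed for the long-term experiment and among the 14007 listed for the short-term experiment. They were followed over 25 mice in 7 groups.

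All mice carried the same alleles and all received doxycycline (dox), so no group of untreated or wild-type mice was part of these comparisons. In sh*Rb* mice, rtTA from the broadly active *Rosa26* locus, once bound to dox, switches on an shRNA against Rb linked to GFP at *Col1a1*, and dox removal allows RB to return. The line came from 1 embryonic stem cell clone with 1 shRNA, and the knockdown is not limited to the pituitary. Adult mice were used, and each library came from a snap-frozen pituitary or pituitary tumor. In the long-term experiment, pituitaries were taken after 6 weeks on dox (6w+dox, 3 females), after 12 weeks on dox (12w+dox, replicates 1 and 2 female, 3 and 4 male), or after 6 weeks on and 6 weeks off dox (12w-res, replicates 1 and 2 male, 3 to 5 female). In the short-term experiment, they were taken after 16 weeks on dox (16w +dox, 3 males) or 1 day (1d -dox, 4 females), 3 days (3d -dox, 3 males) or 5 days (5d -dox, 3 females) after dox was stopped at that stage. Time off dox and sex therefore cannot be told apart in the short-term experiment, except between 3d -dox and 16w +dox, both male, and between 5d -dox and 1d -dox, both female.

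Pulses of GnRH from the hypothalamus act on GNRHR at the gonadotroph surface and drive transcription of *Lhb* and *Fshb*, with EGR1, NR5A1 and PITX factors acting at the *Lhb* promoter. Activin raises *Fshb*, and inhibin from the gonads, which binds TGFBR3L, opposes it. Sex steroids feed back on the whole axis. *Cga* is also transcribed in thyrotrophs, whose hormone TSH shares the alpha subunit, and *Gata2* is active there and in other cells, so neither is limited to gonadotrophs. Tumors of *Rb*-deficient mice arise in the intermediate lobe, whose melanotrophs transcribe *Pomc* and make no gonadotropin.

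On GRCm38.p6, RefSeq places *Cga* at chr4:34893779-34907374, *Lhb* at chr7:45417608-45421855, *Fshb* at chr2:107055986-107059651, *Gnrhr* at chr5:86180754-86197901, *Nr5a1* at chr2:38692656-38714542, *Tgfbr3l* at chr8:4248214-4251423 and *Gata2* at chr6:88193891-88207032. *Gata2* overlaps the lncRNA gene Gm38708, for which no value was used here. The promoters of the beta subunits and of their partners are shown because their genes moved together in several comparisons below. RefSeq start sites on GRCm38.p6 matched 6 of the 7 genes, and the 250 bases upstream of the start are given 5′ to 3′ on the gene's own strand, in lower case with motif matches in capitals. The windows lie at chr7:45420696-45420945 (plus strand) for *Lhb*, chr2:107059652-107059901 (minus strand) for *Fshb*, chr4:34893529-34893778 (plus strand) for *Cga* and chr8:4247964-4248213 (plus strand) for *Tgfbr3l*. The *Lhb* window lies inside the span of *Lhb* given above, upstream of a start site within that span and not of its first base.
Lhb: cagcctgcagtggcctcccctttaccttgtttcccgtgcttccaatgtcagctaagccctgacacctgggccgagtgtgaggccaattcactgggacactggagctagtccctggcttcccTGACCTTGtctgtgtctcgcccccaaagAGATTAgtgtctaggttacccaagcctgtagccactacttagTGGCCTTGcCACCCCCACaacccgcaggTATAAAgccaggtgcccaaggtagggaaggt
Fshb: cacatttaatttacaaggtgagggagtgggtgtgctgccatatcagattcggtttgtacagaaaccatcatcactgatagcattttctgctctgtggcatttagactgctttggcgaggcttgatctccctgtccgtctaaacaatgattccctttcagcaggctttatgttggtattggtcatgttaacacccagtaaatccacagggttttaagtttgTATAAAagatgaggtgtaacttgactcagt
Cga: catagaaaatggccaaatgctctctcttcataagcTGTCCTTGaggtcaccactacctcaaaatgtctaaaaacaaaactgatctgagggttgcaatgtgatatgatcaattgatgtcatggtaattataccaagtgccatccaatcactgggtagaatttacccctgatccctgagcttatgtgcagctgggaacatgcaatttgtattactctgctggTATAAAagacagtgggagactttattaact
Tgfbr3l: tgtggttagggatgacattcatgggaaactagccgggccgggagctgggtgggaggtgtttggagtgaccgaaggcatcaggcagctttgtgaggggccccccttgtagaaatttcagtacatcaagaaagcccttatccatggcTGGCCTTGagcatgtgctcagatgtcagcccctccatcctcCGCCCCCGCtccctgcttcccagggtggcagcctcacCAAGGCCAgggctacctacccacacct

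Both strands of the windows upstream of the start were searched for the NR5A1 motif CAAGGNCA, the PITX motif TAATCN and the EGR1 motif CNCCCCCNC. The GATA motif AGATAA and the TATA motif TATAAA were searched for in the same way. No result is given for bases past the start. In the *Lhb* window the NR5A1 motif began at -129 and again at -59, the PITX motif at -101, the EGR1 motif at -50 and TATAAA at -31. In *Tgfbr3l* the NR5A1 motif began at -105 and at -27 and the EGR1 motif at -64. *Cga* held the NR5A1 motif at -215 and TATAAA at -30, and of these motifs the *Fshb* window held TATAAA, at -30. Of all 32851 RefSeq windows of this length, 5.53% held the NR5A1 motif, 19.8% the PITX motif, 17% the EGR1 motif, 9.99% the GATA motif and 12.4% TATAAA. The matches in the windows shown did not overlap each other. A match describes letters, and binding was not measured.

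Values are FPM, reads scaled by size factors, and each corresponded to a whole number of reads. Libraries held 19066053 to 28968476 reads on genes in the long-term experiment (poly(A) selected) and 9573101 to 13036900 in the short-term experiment (depleted of ribosomal RNA). FPM were scaled differently in the 2 experiments, and levels are not compared between them. *Rb1*, the targeted gene, measured 1.86 to 5.09 FPM in mice on dox and 16.1 to 20.3 in 12w-res, while in the short-term mice it stayed between 3.47 and 6.03 and GFP fell to 9.34 to 15.2 at 5d -dox from 1025 to 1360.4 at 16w +dox. *Xist* measured 85.2 to 2330.4 FPM in the females of the long-term experiment and at most 0.195 in its males, as their labels say. Melanotroph *Pomc* took 12.9% to 43.2% of the reads on genes in the long-term libraries and 4.96% to 17.9% in the short-term libraries. Its share was 13.6% to 32.2% at 6w+dox, 12.9% to 23.0% at 12w+dox and 39.1% to 43.2% in 12w-res.

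Per kilobase of the longest transcript, the order of the gonadotropin subunits was the same in each long-term group. *Cga* came first (mean ± SD of 1997 ± 121 FPM per kb after 6 weeks on dox, 376 ± 255 after 12 weeks on dox and 1236 ± 1412 after restoration), followed by *Lhb* (573 ± 108, 233 ± 223 and 463 ± 621), *Fshb* (102 ± 29.8, 78.6 ± 93.4 and 139 ± 216) and *Tgfbr3l*. The receptor and the transcription factors were lower, between 4.10 and 13.7 FPM per kb. Spread was wide within the 12-week groups, where the SD came near or above the mean for the beta subunits. These groups hold both sexes, and neighbours in the order of groups overlapped for all genes but *Nr5a1* between 6w+dox and 12w+dox. In the short-term mice *Cga* was again first in each group, from 2.65 ± 1.91 FPM per kb at 1d -dox to 33.3 ± 19.3 at 3d -dox.

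*Cga* measured 1365, 1511 and 1359.5 FPM in the 3 females at 6w+dox. The 12w+dox females had 439.5 and 41.2 FPM of *Cga* and the males 379 and 203. After RB restoration (12w-res), *Cga* stood at 362, 314 and 386 FPM in females and 2643 and 663 in males. All 6w+dox mice were above all 12w+dox mice, and 12w-res replicate 1, a male, was the highest of the 12.

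*Lhb* measured 353, 473 and 340.4 FPM in the 3 females at 6w+dox. With 12 weeks on dox it was 87.6 and 11.9 in females and 364 and 169 in males. Restored females (12w-res) had 71.9, 64.4 and 65.5 and restored males 1039.6 and 327 FPM. The females at 12 weeks, on or off dox, were all below every other mouse, and the males overlapped the 6w+dox females. *Fshb* measured 121, 152 and 215 FPM in the 3 females at 6w+dox. Its level was 20.8 and 10.2 FPM in the females and 332 and 140.4 in the males of 12w+dox. Among 12w-res mice the females had 6.37, 17.5 and 20.4 and the males 811 and 253 FPM of *Fshb*. Here the separation was wider, with the 12-week females from 6.37 to 20.8 and the males from 140.4 to 811. For both beta subunits 12w-res replicate 1 was the highest of the 12 mice.

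*Gnrhr* measured 1.80, 9.0 and 35.5 FPM in the 3 females at 6w+dox. The 12w+dox females had 8.65 and 0.554 FPM of *Gnrhr* and the males 22.1 and 22. After RB restoration (12w-res), *Gnrhr* stood at 1.82, 5.08 and 5.75 FPM in females and 15.9 and 18 in males. Mice of 1 group differed more than the group means: 6w+dox ranged from 1.80 to 35.5, and replicate 1 was also the lowest of its group for *Nr5a1*, *Tgfbr3l* and *Gata2*. *Nr5a1* measured 33, 44.8 and 45.5 FPM in the 3 females at 6w+dox. With 12 weeks on dox it was 12.9 and 1.63 in females and 27.6 and 20.5 in males. Restored females (12w-res) had 5.64, 6.32 and 6.74 and restored males 30.9 and 27.4 FPM. Every 6w+dox mouse was above every mouse of the 12-week groups. *Gata2* measured 13, 34.2 and 38.6 FPM in the 3 females at 6w+dox. Its level was 21 and 2.10 FPM in the females and 24.6 and 17.9 in the males of 12w+dox. Among 12w-res mice the females had 6.96, 7.32 and 5.25 and the males 28.3 and 29.9 FPM of *Gata2*. Its 6w+dox range overlapped both other groups. *Tgfbr3l* measured 158, 238 and 236 FPM in the 3 females at 6w+dox. The 12w+dox females had 41.7 and 11.7 FPM of *Tgfbr3l* and the males 151 and 72. After RB restoration (12w-res), *Tgfbr3l* stood at 32.7, 33.5 and 40.3 FPM in females and 316 and 132 in males. All 6w+dox mice were above all 12w+dox mice, and 12w-res replicate 1 was above them all.

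**Figure D1:**
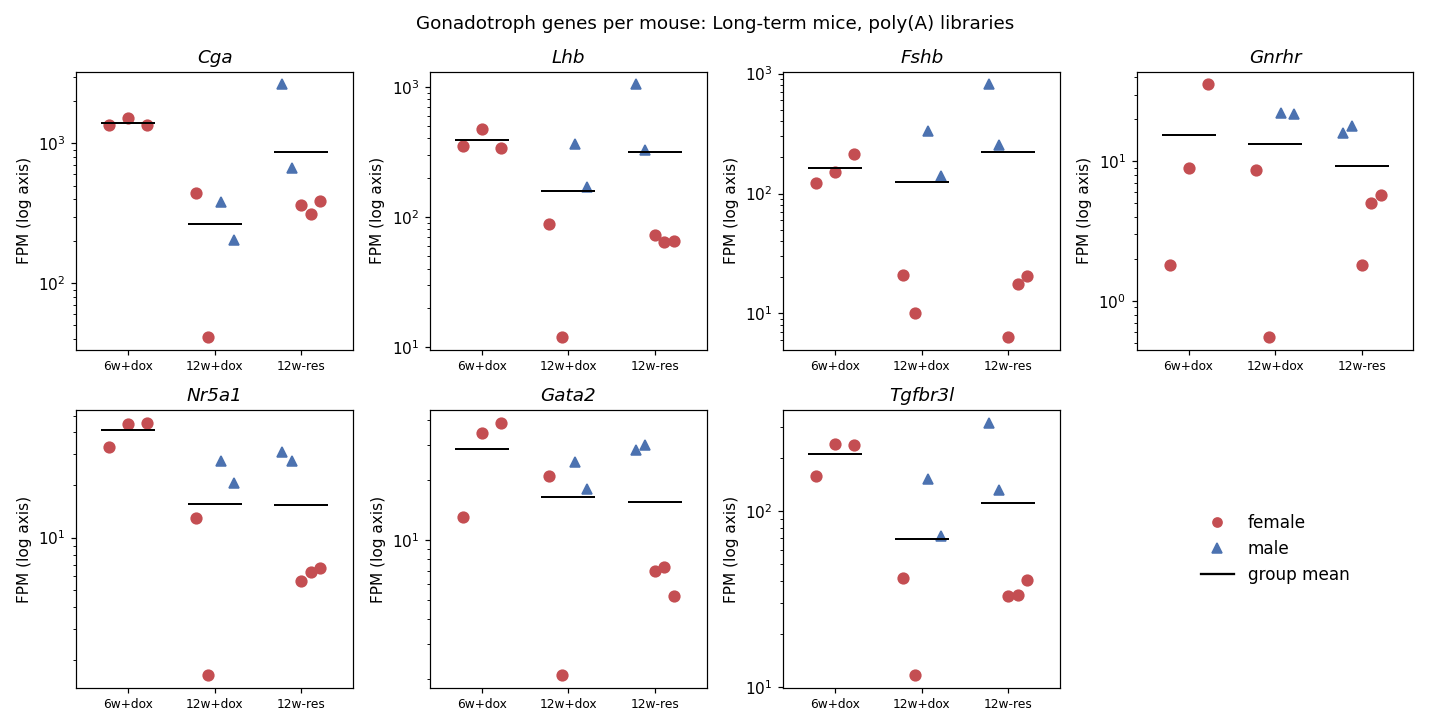
FPM (log axis) of the 7 gonadotroph genes in the 12 long-term mice, by group, with females as circles, males as triangles and the group mean as a line. At 12 weeks the females sit below the males for the beta subunits, and 12w+dox replicate 2, a female, is the lowest mouse for 6 of the 7 genes.

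Replicate 2 of 12w+dox held the lowest value of the 12 mice for 6 of the 7 genes (*Fshb* was lower in 12w-res replicate 3). It was low for other anterior pituitary hormones too, with 930.3 FPM of *Gh* beside 2042 to 7478 in its group and 0.904 FPM of *Tshb* beside 3.24 to 10.5. In bulk libraries, fewer gonadotrophs and less RNA per gonadotroph cannot be told apart.

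Between 6 and 12 weeks on dox, *Cga* fell and the other 6 genes were lower without passing the test. Genes were tested with limma on log2(FPM + 0.5) and called where the p adjusted over all genes (Benjamini-Hochberg) was under 0.05 and the log2 difference exceeded 1 in size. *Cga* differed by -2.86 (standard error 0.76, adjusted p = 0.0166, limma). Of all 15315 genes, 4.04% were called lower in this comparison. The differences of the other genes were -2.09 for *Lhb*, -1.47 for *Fshb*, -0.14 for *Gnrhr*, -1.85 for *Nr5a1*, -1.06 for *Gata2* and -2.09 for *Tgfbr3l*, with standard errors of 0.76 to 1.43. The median of the 7 was -1.85, beside -0.0063 over all genes. The groups did not overlap for *Cga*, *Nr5a1* and *Tgfbr3l*, with 6w+dox above 12w+dox, as was the case for 12.4% of all genes. Without 6w+dox replicate 2 the adjusted p of *Cga* was 0.0623 (log2 difference -2.81), and without 12w+dox replicate 3 *Tgfbr3l* was called as well (-2.63, adjusted p = 0.0354, limma).

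All 6w+dox mice were female and 12w+dox held both sexes, so the same comparison was made with sex in the fit and within females. With sex as a covariate, 6 of the 7 genes were lower at 12w+dox past the threshold, where 3.98% of all genes were called lower. *Fshb* differed by -3.72 (standard error 0.54, adjusted p = 0.00130), *Lhb* by -3.59 (0.58, adjusted p = 0.00227), *Cga* by -3.62, *Tgfbr3l* by -3.27, *Nr5a1* by -2.93 and *Gata2* by -1.97 (limma). *Gnrhr*, at -1.34 (standard error 0.88), did not pass. Within females, 3 mice against 2, the 3 subunit genes, *Nr5a1* and *Tgfbr3l* were called lower, with log2 differences of -3.54 to -2.94, where 2.06% of all genes were called lower.

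After dox removal, 0 of the 7 genes were called between 12w-res and 12w+dox, where 11.3% of all genes were. The groups overlapped for all 7, whereas 34.5% of all genes did not overlap. At an unadjusted p under 0.05 there was 1 of the 7, *Cga*, and DESeq2 and edgeR called 0. *Cga* was higher in 12w-res by 1.63 (standard error 0.66, adjusted p = 0.0670, limma) and *Lhb* by 0.82 (standard error 0.91), while the other 5 genes lay between -0.15 and 0.56. With sex as a covariate *Cga* rose by 1.78 (standard error 0.55, adjusted p = 0.0231), and no other member passed, where 6.06% of all genes were called higher. Within males, 2 against 2, *Cga* rose by 2.25 (adjusted p = 0.0271, limma, where 5.65% of all genes were called higher), and within females 0 of the 7 were called, where 9.22% of all genes were, with *Cga* at 1.38 (adjusted p = 0.228). Without 12w+dox replicate 1 *Cga* was called in all mice (2.02, adjusted p = 0.0354). Its rise was 0.89 without 12w+dox replicate 2 (adjusted p = 0.231, limma) and 1.09 without 12w-res replicate 1 (adjusted p = 0.145, limma). Under totals of reads it was 0.97 (adjusted p = 0.227, limma). The interaction of sex with dox removal was called for 0 of the 7 genes by limma, DESeq2 and edgeR, and for 0.0326% of all genes by limma. For *Fshb* it was -1.20 (standard error 0.84), with 0 of the 7 at an unadjusted p under 0.05.

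Against 6w+dox, the point at which dox had been removed, 0 of the 7 genes were called in 12w-res by limma, DESeq2 or edgeR (1 at an unadjusted p under 0.05 in limma), where limma called 11.6% of all genes. On the log2 scale of limma all 7 were lower in 12w-res, whereas the mean FPM of *Fshb* was 222 in 12w-res and 163 at 6w+dox, and DESeq2 (0.45) and edgeR (0.47) placed *Fshb* above 0. The limma differences ran from -0.29 for *Gnrhr* to -1.76 for *Nr5a1* (standard error 0.73, adjusted p = 0.0789), with a median of -1.26 beside -0.021 over all genes. *Nr5a1* was the gene whose groups did not overlap, with 12w-res below 6w+dox, which 15.9% of all genes met. With sex as a covariate 6 of the 7, all but *Gnrhr*, were lower past the threshold, where 6.5% of all genes were called lower. They included *Fshb* at -3.31 (standard error 0.50, adjusted p = 0.000290), *Lhb* at -2.47 and *Cga* at -1.84 (limma). Both comparisons use the 6w+dox mice. Within females 5 genes were called lower (not *Gnrhr* and *Gata2*), where 6.39% of all genes were, and without 12w-res replicate 1 *Cga* (-1.77), *Nr5a1* (-2.10) and *Tgfbr3l* (-2.06) were called in all mice.

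**Figure D2:**
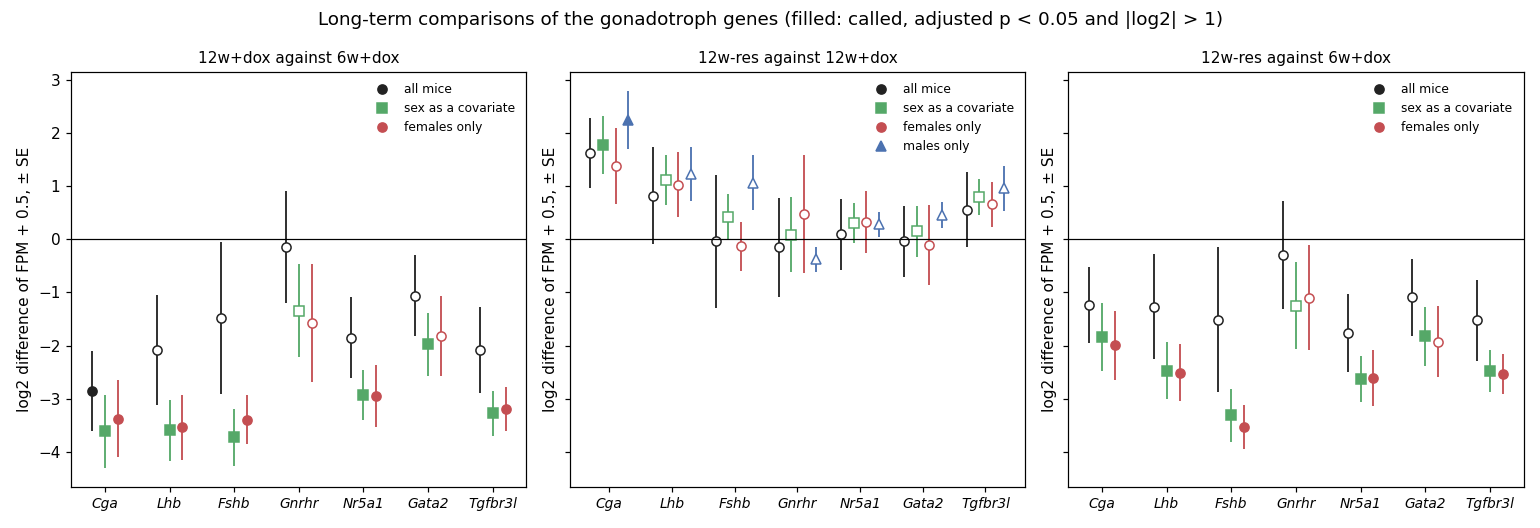
Log2 differences of FPM + 0.5 (± standard error) of the 7 genes in the 3 long-term comparisons, from limma on all mice, with sex as a covariate, and within each sex where both groups hold it. Filled symbols are called. With sex in the fit, 6 genes lie below 0 past the threshold at 12w+dox and in 12w-res against 6w+dox, and Cga lies above it between 12w-res and 12w+dox.

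Genes of the pathways around these 7 were followed in 3 lists. Of 27 genes of GnRH receptor signalling, 1 was lower at 12w+dox than at 6w+dox, *Rgs2*, a regulator of G protein signalling (-1.92, standard error 0.25, adjusted p = 0.000372, limma), where 4.04% of all genes were called lower, a share close to 1 in 27. In 12w-res, 4 were lower than at 6w+dox, where 5.82% of all genes were, *Rgs2* (-1.50), *Egr1* (-3.31), its corepressor *Nab2* (-2.21) and *Junb* (-2.13), and *Nab2* was also lower than at 12w+dox (-1.33). With sex as a covariate *Junb* did not pass against 6w+dox (-1.78, adjusted p = 0.0842, limma) and the other 3 did. Between 12w-res and 12w+dox, 2 of the 27 were lower within females, 3 mice against 2, *Egr1* (-3.74) and *Nab2*. Of all genes, 9.22% were called there in either direction. Within males, 2 against 2, *Nab2* was lower and 3 immediate-early genes, *Fos* (1.87), *Junb* (1.04) and *Nr4a1* (1.95), were higher. Of all 15315 genes, 5.65% were called higher within males and 862 lower. In all mice, DESeq2 called *Egr1* and *Nab2* in this comparison, and edgeR called 2 of the 27. The interaction of sex with dox removal was called for 0 of the 27 by limma or edgeR (6 at an unadjusted p under 0.05 in limma) and for *Egr1* and *Nr4a1* by DESeq2. EGR1 is the factor through which GnRH acts on *Lhb*, and it is an immediate-early gene product of many cells. The list's median was -0.13 at 12w+dox and -0.30 in 12w-res against 6w+dox, and -0.17 in 12w-res against 12w+dox.

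Of 18 genes of activin, inhibin and follistatin, 2 were called lower at 12w+dox than at 6w+dox, where 4.04% of all genes were. They were the receptor gene *Acvr1c* (-1.50) and the ligand gene *Bmp4* (-1.43). *Bmp4* was higher in 12w-res than at 12w+dox (1.15, adjusted p = 0.00269, limma), 1 of the 18, where 11.3% of all genes were called in either direction. *Inhba*, the activin A subunit (1.14), and the follistatin-like gene *Fstl3* (1.04) were higher in 12w-res than at 6w+dox, from means of 0.161 and 0.445 FPM at 6w+dox, and *Acvr1c* was lower (-1.18). Of all genes, 11.6% were called between these groups in either direction. The list's medians were 0.089 and -0.073 against 6w+dox. Of 14 listed genes of the gonadotroph lineage and nuclear receptors, 3 were called lower at 12w+dox than at 6w+dox, among them *Nr0b1* (-1.92). In 12w-res 4 were called lower than at 6w+dox, among them *Nr0b1* (-1.43) and *Msx1* (-1.13). Of all genes, 4.04% and 5.82% were called lower in these 2 comparisons. The list's medians were -0.35 at 12w+dox and -0.57 in 12w-res against 6w+dox. Between 12w-res and 12w+dox, 0 of the 14 were called by limma, DESeq2 or edgeR (5 at an unadjusted p under 0.05), where limma called 11.3% of all genes.

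Marker genes of other cell types moved in the same comparisons. Against 6w+dox, 12w+dox was lower for 3 of 3 somatotroph markers (*Gh* -4.57), for the lactotroph gene *Prl* (-4.32), for 2 of 3 thyrotroph markers (*Tshb* -2.87) and for 4 of 4 neural lobe markers, beside the 4.04% of all genes called lower. The other thyrotroph marker, *Dio2*, lay at 0.79 without passing, and was called higher with sex as a covariate (1.06). The summed somatotroph markers ranged from 45927 to 80250.4 FPM at 6w+dox, from 934 to 7554 at 12w+dox and from 6409 to 24797 in 12w-res. Between 12w-res and 12w+dox, 11.3% of all genes were called in either direction. *Prl* was higher in 12w-res (4.06), as were *Gh* (2.31) and 3 of 4 endothelial markers. Of the 3 thyrotroph markers, *Dio2* was called lower in 12w-res by limma, also within each sex, and by DESeq2. The other 2 thyrotroph markers lay above 0 without passing. DESeq2 gave *Prl* no p in these comparisons, with log2 differences of -2.89 and 2.67, and edgeR called it in both. The thyrotroph gene *Tshb*, whose cells also transcribe *Cga*, measured 12.9, 65.6 and 43.5 FPM at 6w+dox, 10.5, 0.904, 7.42 and 3.24 at 12w+dox and 19.2, 5.81, 5.60, 8.97 and 12.8 in 12w-res, replicate 1 being the highest of 12w-res as for *Cga*. Of 5 melanotroph markers, *Pax7* and *Drd2* were higher at 12w+dox than at 6w+dox, and *Pomc* (-0.55), *Tbx19* (-0.34) and *Pcsk2* (-0.24) lay below 0 without passing. In 12w-res, 1 of the 5, *Pcsk2*, was called higher than at 12w+dox and than at 6w+dox. Limma called 11.3% and 11.6% of all genes there in either direction. DESeq2 called *Pomc* as well in both. Against 12w+dox 3 of the 5 lay below 0, and against 6w+dox 1 did. The part of these cell types in the levels of the 7 genes was not tested.

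Sex went with the gonadotroph genes in the long-term mice. In a fit of group and sex, where the difference rests on the 12w+dox and 12w-res mice, 7 of 15315 genes were called between females and males, 6 of them lower in females (0.0392% of all genes). Of these 6, 3 were gonadotroph genes. The log2 difference, female minus male, was -4.50 for *Fshb* (standard error 0.43, adjusted p = 0.000734, limma), -3.02 for *Lhb* (0.47, adjusted p = 0.0407) and -2.37 for *Tgfbr3l* (0.34, adjusted p = 0.0300). The other 4 called genes were *Xist*, *Aif1l*, *Adcyap1r1*, which encodes the PACAP receptor, and *Lama1*, which encodes a laminin chain. *Nr5a1* (-2.16, adjusted p = 0.102), *Gnrhr* (-2.39), *Gata2* (-1.83) and *Cga* (-1.51) did not pass. In the 12-week mice, each of the 5 females was below each of the 4 males for *Lhb*, *Fshb*, *Gnrhr*, *Nr5a1* and *Tgfbr3l*, and 0.379% of all genes separated the sexes in this way. DESeq2 called 4 of the 7 (*Nr5a1* beside these 3) and edgeR 2.

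*Fshb* was called whichever mouse was left out (log2 difference -4.84 to -4.00). *Lhb* and *Tgfbr3l* together with *Fshb* were called without 12w+dox replicate 2, where *Nr5a1* was called too, or 6w+dox replicate 3, and *Tgfbr3l* with *Fshb* without 12w+dox replicate 4 or 6w+dox replicate 1. Leaving out 12w+dox replicate 1 gave 5 calls, and leaving out 12w+dox replicate 3, 6w+dox replicate 2 or any 12w-res mouse gave 1, *Fshb*. Of the genes of the 3 pathway lists, 0 of 27, 0 of 18 and 0 of 14 differed by sex by limma, DESeq2 or edgeR, with 5, 1 and 4 at an unadjusted p under 0.05. *Gh* overlapped between the sexes at 12 weeks (930.3 to 11629.9 FPM in females and 2042 to 24746 in males).

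In the short-term experiment the gonadotroph genes were scarce in the female groups and higher in the male groups. *Lhb* measured 4.74, 1.95 and 6.0 FPM in the 16w +dox males and 21, 7.77 and 24.5 FPM in the males taken 3 days after withdrawal. Females had 0.180, 0.214, 0.199 and 0.374 FPM of *Lhb* at 1d -dox, while those at 5d -dox had 0.308, 0.0779 and 0.225. The values of the females rest on 7 to 16 reads at 1d -dox and 3 to 11 at 5d -dox, and every female was below every male.

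*Fshb* measured 5.22, 0.882 and 9.57 FPM in the 16w +dox males and 36.9, 15 and 45.9 FPM in the males taken 3 days after withdrawal. Females had 0.258, 0.0916, 0.349 and 0.748 FPM of *Fshb* at 1d -dox, while those at 5d -dox had 0.280, 0.312 and 1.01. The highest female, at 1.01, was above the lowest male, 16w +dox replicate 2, at 0.882. *Cga* measured 4.52, 51.1 and 7.38 FPM in the 16w +dox males and 26, 8.77 and 35.7 FPM in the males taken 3 days after withdrawal. Females had 1.44, 0.733, 1.47 and 3.84 FPM of *Cga* at 1d -dox, while those at 5d -dox had 2.47, 1.92 and 2.11. All females were below all males, and 16w +dox replicate 2 held the highest value.

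The same mouse, 16w +dox replicate 2, was the highest of the 13 for *Gnrhr* (18.4 FPM) and *Nr5a1* (12.2), although it was the lowest male for both beta subunits. Its lactotroph gene *Prl* was also the highest, at 93.5 FPM beside 7.26 and 12.7 in its group, and so was the endothelial gene *Kdr*, at 16 beside 5.59 and 6.69. For *Gnrhr* the other males lay between 1.65 and 16 and the females between 0.324 and 1.08. *Nr5a1* lay between 0.995 and 6.17 in the other males and between 0.0611 and 0.421 in the females, *Tgfbr3l* between 2.90 and 21 in males and 0.275 and 1.07 in females, and *Gata2* between 2.60 and 22.7 in males and 0.733 and 1.93 in females. For all 4 of these genes, no female reached the lowest male. Among the males, *Lhb* and *Fshb* were higher in each 3d -dox mouse than in each 16w +dox mouse, and the other 5 genes overlapped.

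**Figure D3:**
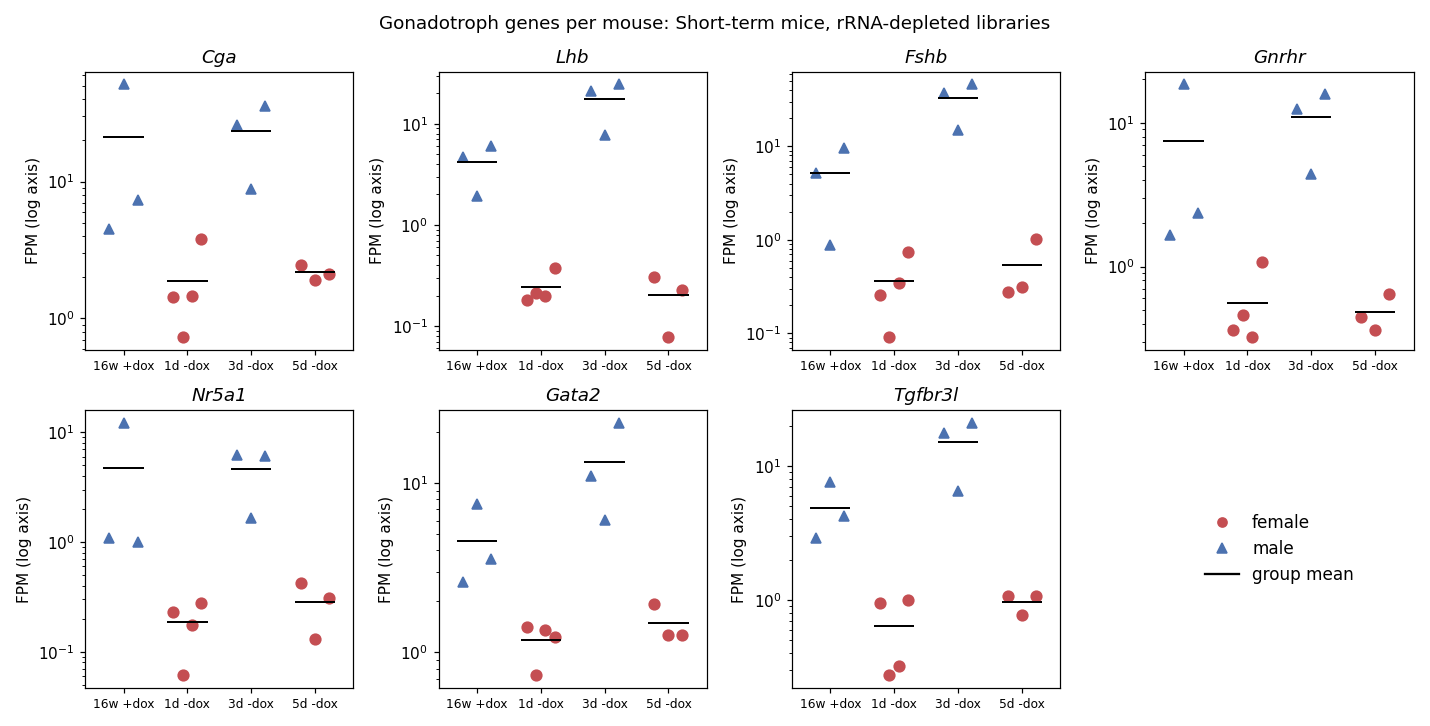
FPM (log axis) of the 7 gonadotroph genes in the 13 short-term mice, by group, with females as circles, males as triangles and the group mean as a line. The female groups (1d -dox and 5d -dox) sit below the male groups, and 16w +dox replicate 2 is the highest mouse for Cga, Gnrhr and Nr5a1.

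All 7 genes had at least 10 reads in over 50% of the mice of each male group and so were among the 13958 genes tested. Among the female groups, 5 of 7 reached this at 1d -dox (not *Lhb* and *Nr5a1*) and 6 of 7 at 5d -dox (not *Lhb*). *Lhb* therefore passed only through the male groups, in which it was higher. The pseudocount of 0.5 also draws in the differences of values this low.

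At 1d -dox against 16w +dox, *Lhb* (log2 difference -2.57, standard error 0.35, adjusted p = 0.0221) and *Tgfbr3l* (-2.22, standard error 0.37, adjusted p = 0.0420, limma) were lower, 2 of the 5 genes (0.0358%) called lower in this comparison. *Lhb* was tested only because the males reached the read minimum, so its call is a description, and with at least 10 reads required in every sample, which removed *Lhb*, *Fshb*, *Nr5a1* and *Tgfbr3l*, 0 of the other 3 were called. The other 5 differed by -2.58 to -1.49 without passing. The groups did not overlap for any of the 7 genes, with all females lower, which 5.6% of all genes met. DESeq2 called 6 of the 7, all but *Nr5a1*, to which it gave no adjusted p. Without 16w +dox replicate 1, 1d -dox replicate 1 or 1d -dox replicate 2, 0 of the 7 were called, and without 16w +dox replicate 3 or 1d -dox replicate 3 *Lhb* alone was. Without 16w +dox replicate 2 the calls were *Lhb* (-2.98) and *Fshb* (-3.19).

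At 5d -dox against 16w +dox, *Lhb* was lower (log2 difference -2.65, standard error 0.38, adjusted p = 0.0110, limma), where 0.107% of all genes were called lower. It too passed the read minimum only through the male groups, and 0 of the 7 were called with at least 10 reads in every sample, which removed the same 4 genes, or with only the 2 groups in the fit. The other 6 genes differed by -2.32 to -1.24 without passing. The groups did not overlap for the 6 genes other than *Fshb*, with the females lower, as was the case for 9.64% of all genes. DESeq2 called 5 of the 7. Without 16w +dox replicate 2, *Fshb* was called as well (-2.94, adjusted p = 0.0102, limma), and without 16w +dox replicate 1, 5d -dox replicate 2 or 5d -dox replicate 3, 0 were. Both comparisons set female mice against the same 3 males, so time off dox and sex cannot be told apart in them.

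Among males, those of 3d -dox were higher than those of 16w +dox for *Lhb* by 1.91 (standard error 0.38, adjusted p = 0.0476, limma), 1 of the 11 genes (0.0788%) called higher. *Fshb* was higher by 2.80 (standard error 0.58) and missed the threshold (adjusted p = 0.0584). The others ran from 0.54 for *Nr5a1* to 1.46 for *Tgfbr3l*, with a median over the 7 of 1.37 beside 0.0092 over all genes. The direction of *Nr5a1* turned with the tool, at -0.044 by DESeq2 and -0.030 by edgeR, and its mean FPM was 4.62 at 3d -dox and 4.77 at 16w +dox. *Lhb* and *Fshb* did not overlap between the groups, with 3d -dox above, which 10.6% of all genes met. Leaving out any 16w +dox mouse, 3d -dox replicate 1 or 3d -dox replicate 3 gave 0 calls, and leaving out 3d -dox replicate 2 gave 4 (*Lhb*, *Fshb*, *Tgfbr3l* and *Gata2*). *Gh* measured 387, 125 and 696 FPM at 3d -dox and 175, 85.4 and 161 at 16w +dox, which overlap. The share of *Pomc* in the reads on genes did not overlap, at 4.96% to 10.55% at 3d -dox and 12.28% to 12.96% at 16w +dox. Of 5 melanotroph markers, 3 lay below 0 in this comparison and 2 above it, and 0 were called by limma. The part of other cell types in the rise of *Lhb* and *Fshb* was not tested.

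Between the female groups, 5d -dox and 1d -dox, 0 of the 7 genes were called by limma, DESeq2 or edgeR, 0 had an unadjusted p under 0.05, and limma called 0.0143% of all genes. Differences ran from -0.08 to 0.43 with standard errors of 0.35 to 0.65, and the groups overlapped for all 7, whereas 7.8% of all genes did not overlap. *Lhb* rested on 3 to 16 reads a mouse here, and *Cga* on 24 to 164.

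A comparison of the female groups (1d -dox and 5d -dox) with the male groups (16w +dox and 3d -dox) was chosen after their values were seen and is given as a description, with no test. The log2 differences were -3.56 for *Lhb* (standard error 0.26), -3.65 for *Fshb*, -2.82 for *Gnrhr*, -2.77 for *Cga*, -2.73 for *Tgfbr3l*, -2.37 for *Nr5a1* and -2.05 for *Gata2*. The sexes did not overlap for 6 of the 7 genes, all but *Fshb*, with females lower, which 1.25% of all genes met. *Lhb* reached the read minimum in neither female group. Here each sex is a pair of treatment groups, and the somatotroph markers *Gh* (-2.43), *Pou1f1* (-1.77) and *Ghrhr* (-1.17) and the endothelial genes *Cdh5* (-1.20) and *Kdr* (-1.12) lay below 0 too. Their part was not tested, and the sexes of these mice are as their labels give them.

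In the pathway lists, 0 genes were called in the short-term comparisons with 16w +dox or of 5d -dox with 1d -dox, by limma or edgeR. Of 27 genes of GnRH receptor signalling, 4, 5, 5 and 0 had an unadjusted p under 0.05 at 1d, 3d, 5d and between 5d and 1d, of 16 of activin, inhibin and follistatin 4, 1, 4 and 0, and of 12 of the lineage 3, 3, 4 and 1. Of all 13958 genes tested, 1823, 2323, 1889 and 883 had such a p in these comparisons, in the same order. DESeq2 called *Atf3* and *Isl1* at 1d -dox and *Plcb1* at 3d -dox.

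**Figure D4:**
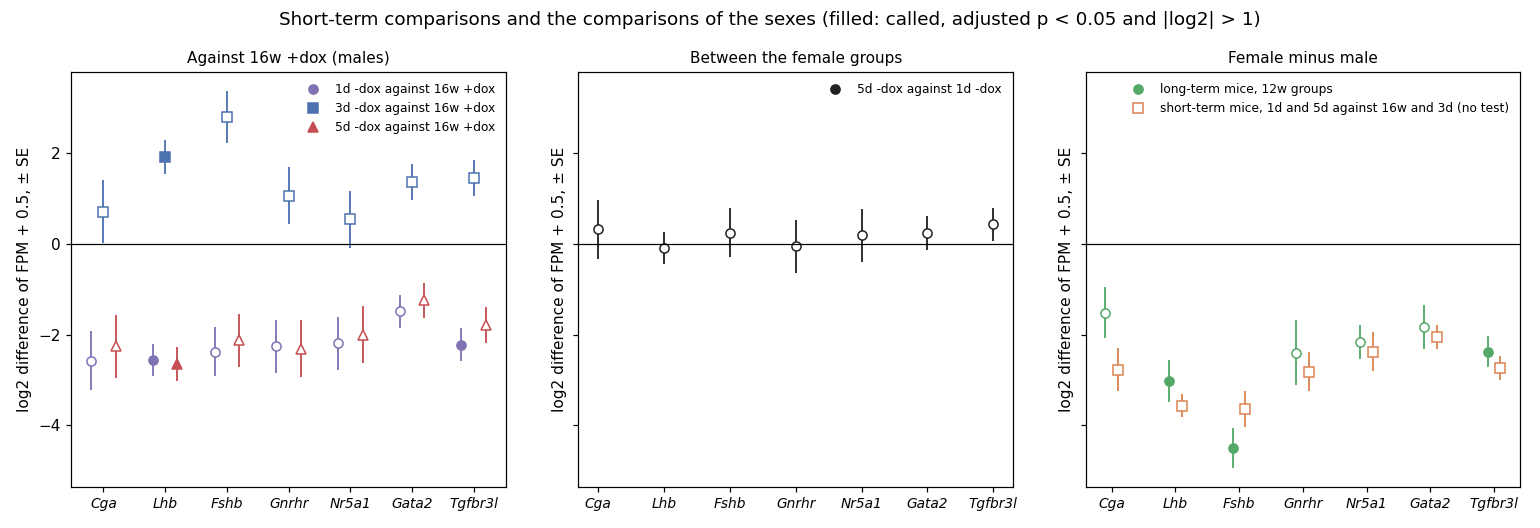
Log2 differences of FPM + 0.5 (± standard error, limma) of the 7 genes for each short-term group against 16w +dox, for 5d -dox against 1d -dox, and for females minus males in the long-term and short-term mice. Filled symbols are called, and the short-term comparison of the sexes is drawn open, with no test. The 1d -dox and 5d -dox groups, both female, lie below 0 and the male 3d -dox group above it, and all 7 genes are lower in females in both sex comparisons, 3 of them called in the long-term mice.

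Ratios of subunit transcripts within a mouse do not depend on how libraries were scaled. The ratio of *Lhb* to *Cga* was 0.259, 0.313 and 0.250 after 6 weeks on dox, 0.199 and 0.289 in the females and 0.959 and 0.833 in the males of 12w+dox, and 0.199, 0.205 and 0.170 in the females and 0.393 and 0.493 in the males of 12w-res. All 8 females lay under all 4 males, from 0.170 to 0.313 against 0.393 to 0.959. The ratio of *Fshb* to *Lhb* was 0.774 to 0.911 in the 4 males and 0.0886 to 0.853 in the females, where 12w+dox replicate 2 was the one female among the males.

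Between groups, neither ratio differed past the test. Over the 7 comparisons of each ratio (14 in all), exact two-sided permutation tests of the log2 ratios gave adjusted p of 0.655 to 0.929. The least raw p was 0.1, for *Fshb* to *Lhb* at 3d -dox against 16w +dox, with a log2 difference of 1.00 and no overlap (higher in 3 of 3 mice), and 3 mice against 3 cannot give less. At 3d -dox the log2 ratio of *Fshb* to *Lhb* was 0.89 ± 0.0690 (SD, n = 3) and at 16w +dox -0.11 ± 0.935 (n = 3). For *Lhb* to *Cga*, 16w +dox replicate 2 stood at 0.0382 beside 1.05 and 0.813 in the other males of its group and 0.806, 0.886 and 0.685 at 3d -dox. The short-term females lay between 0.0405 and 0.292, where *Lhb* rested on 7 to 16 reads a mouse at 1d -dox and 3 to 11 at 5d -dox.

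**Figure D5:**
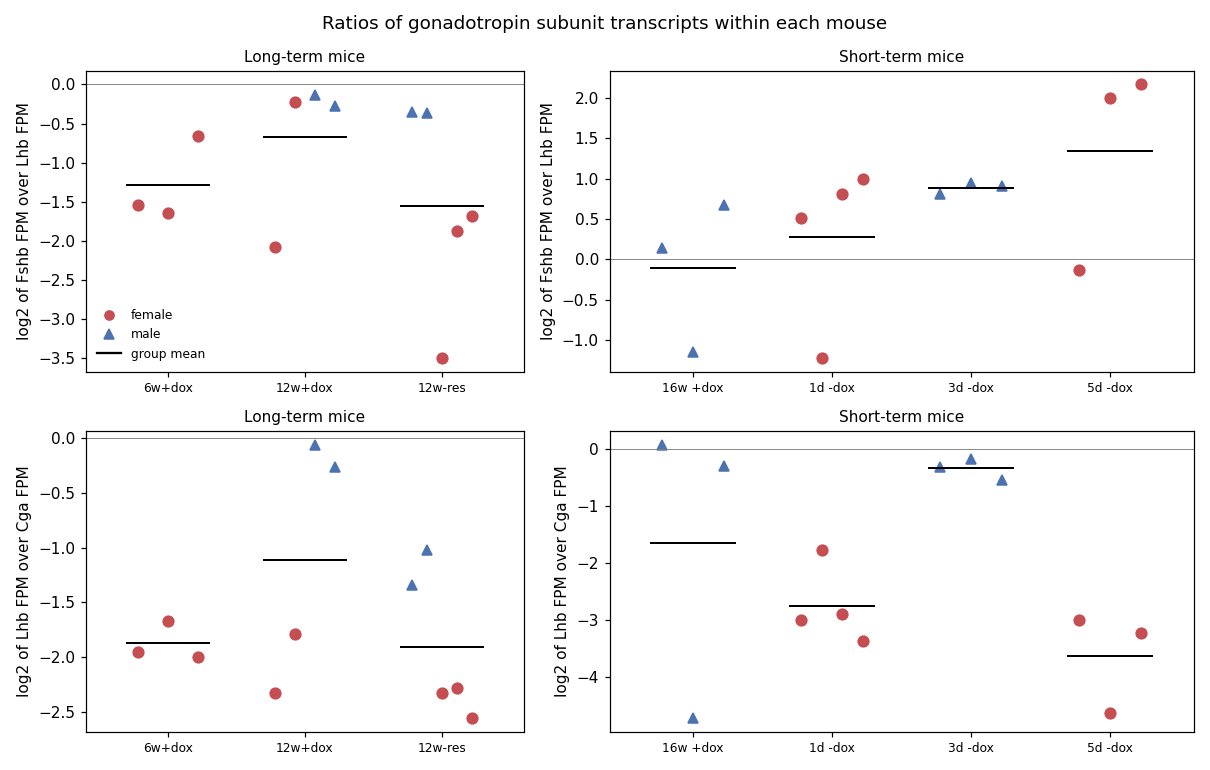
Log2 ratios of Fshb to Lhb (top) and of Lhb to Cga (bottom) within each mouse of the long-term (left) and short-term (right) experiments, by group, with females as circles, males as triangles and the group mean as a line. Long-term females lie under the males for Lhb to Cga, and in the short-term mice 16w +dox replicate 2 lies far under the other males. Both ratios of the short-term females rest on few reads of Lhb, 7 to 16 a mouse at 1d -dox and 3 to 11 at 5d -dox.

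Genes with the most similar pattern were sought by the root mean square difference of centred log2(FPM + 0.5) over the 12 long-term mice and, apart, the 13 short-term mice. Of the other members, *Tgfbr3l* was nearest to *Lhb* in the long-term mice (0.413) and *Fshb* in the short-term mice (0.516). Outside the 7, the nearest in the long-term mice were *Lama1* (0.790), *Tmem52* and *Nr0b1* for *Lhb*, *Adcyap1r1* (1.28), *Fam196a* and *Lama1* for *Fshb*, *Hepacam2* (0.676), *Nnat* and 6030419C18Rik for *Cga*, and *Ttc24* (0.847), *Fam196a* and *Chrna4* for *Gnrhr*. In the short-term mice they were *Gh* (0.908), *Lama1* and *Pou1f1* for *Lhb*, *Gh* (1.09), *Lama1* and *S100a9* for *Fshb*, *Lama1* (0.601), *Pou1f1* and *Nnat* for *Cga*, and *Lama1* (0.469), *Nnat* and *Pou1f1* for *Gnrhr*. For scale, the log2 values of *Lhb* themselves had an SD of 1.68 over the long-term and 1.94 over the short-term mice. The mice share groups and sexes.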

How the data were processed

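Pituitaries of 25 sh*Rb* mice in 7 groups had been sequenced, with groups, replicate numbers and sex taken from the labels. The authors mapped reads to mm10 with STAR, counted them on RefSeq genes (counter and strand setting are not given in the sources used here) and deposited, per gene and mouse, a signal scaled by DESeq2 size factors (FPM). These are not raw counts, but 100% of the values were whole reads within 0.1 of a read, and 10 reads in over 50% of the mice of a group were required for a gene to be tested. In the short-term file, 4 lines that name no gene, holding 68.8% to 75.0% of a library, were left out of depth and tests. 0 per-sample columns were left unused.

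As the values are scaled, limma 3.58.1 (R 4.3.3) with a trended prior on log2(FPM + 0.5) was the main test, with all groups of an experiment in 1 fit, and edgeR 4.0.16 and DESeq2 1.42.0 on recovered reads were alternatives. The fits were run on simulated reads with the same dispersion for every gene and no effect of sex. They were not tested on spread like that of these 7 genes. Ratios were compared by exact permutation (scipy 1.17.1). Every pair of replicates differed beyond counting noise (chi-square over its degrees of freedom from 3.93 to 222), and each mouse was kept as 1 replicate. The genes, lists and tests were chosen with earlier results of these data known. Named genes are the 7, the called genes of 3 pathway lists (at most 8 per list and comparison by fold), marker genes of other cell types, and the 3 genes of nearest pattern to 4 members. Some called genes of these lists are not reported here. Genes called by sex were named after their values were seen. Gene spans and promoters are from RefSeq on GRCm38.p6, and the longest GENCODE vM21 transcripts gave lengths. The alternatives were other tools, pseudocounts, scalings and filters, sex as a covariate or within sex, the replicate number as a block, only the groups compared, no minimum fold, and each mouse left out.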

Additional observations from a re-analysis of the deposited data

Results flagged for a closer look

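In 12w-res, replicate 1, a male, stood apart from the other 4 mice for *Lhb* and *Cga*. Its *Lhb* was 1039.6 FPM beside 64.4 to 327, and its *Cga* was 2643 FPM beside 314 to 663, and both gaps passed Dixon's test at the 95% level. That test was made on FPM, not on the log2 scale of the other tests, and over mice of both sexes. The next highest in both was replicate 2, the other male. The *Gh* of replicate 1, 24746 FPM, was also the highest of its group (6381 to 11629.9 in the others). These were 2 of 21 tests over the groups of 4 or 5 mice, of which chance flags about 1 in 20.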

How the results depend on the processing

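The counts of gonadotroph genes called were within 1.5 times the reported count in 82 of 106 results under settings other than leaving a mouse out. A count of 0 in both was taken as the same. In the long-term mice, dropping the read filter left the same 15315 genes, so those counts could not change. Sex as a covariate gave 6 for 12w+dox against 6w+dox, where females gave 5, and for 12w-res against 6w+dox it was 6 and 5, and 1 under totals of reads or only the groups compared. For 12w-res against 12w+dox the covariate and males each gave 1. The sex count in the long-term mice was 1 under totals of reads. At 1d -dox it was 6 by DESeq2, 1 with a pseudocount of 1, totals of reads or only the groups compared, and 0 with at least 10 reads in every sample. At 3d -dox it was 0 with a pseudocount of 0.1, only the groups compared or at least 10 reads in every sample, and 2 with a pseudocount of 1 or totals of reads. At 5d -dox it was 5 by DESeq2 and 0 under only the groups compared or at least 10 reads in every sample, a filter that removes genes with few reads in females.

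Same-numbered mice did not deviate together (median correlation -0.044 in the long-term and 0.0028 in the short-term mice), so the numbers were not taken as a pairing. With the replicate block, the sex count was 1, the count at 3d -dox was 0, and the other counts were within 1.5 times. Under the block *Fshb* (0.32) and *Gata2* (0.25) turned sign in 12w-res against 12w+dox, *Gnrhr* (0.16) in 5d -dox against 1d -dox, and *Lhb* (0.98), *Gnrhr* (-5.93) and *Nr5a1* (-0.35) in the interaction.

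Other reversals were of differences that had not been called. In 12w-res against 12w+dox, *Fshb* was 0.82 by DESeq2, 0.84 by edgeR, 0.41 with sex as a covariate and 1.07 in males, *Nr5a1* -0.025 by DESeq2, -0.0099 by edgeR and -0.53 under totals of reads, *Tgfbr3l* -0.090 under totals, *Gnrhr* 0.48 in females and 0.090 with the covariate, and *Gata2* 0.46 in males and 0.15 with the covariate. In 12w-res against 6w+dox *Fshb* was 0.45 by DESeq2 and 0.47 by edgeR. *Gnrhr* in 12w+dox against 6w+dox was 0.13 under totals. *Nr5a1* at 3d -dox was -0.044 by DESeq2 and -0.030 by edgeR, and in the interaction -0.50 by both and -0.024 with a pseudocount of 1. The ratio of *Lhb* to *Cga* at 1d -dox was 0.010 with 0.5 added to each FPM. Totals of reads moved the median of all genes by 0.29, -0.61 and -0.33 in the long-term comparisons in the order reported, 0.11 in the interaction and 0.14 at 3d -dox.

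With each mouse left out in turn, counts ran from 0 to 2 for 12w+dox against 6w+dox, 0 to 1 for 12w-res against 12w+dox, 0 to 3 for 12w-res against 6w+dox, 1 to 5 by sex, 0 to 2 at 1d -dox, 0 to 4 at 3d -dox and 0 to 2 at 5d -dox. Some differences turned sign. In 12w-res against 12w+dox, values ranged for *Gata2* from -0.79 to 0.30, *Lhb* from -0.14 to 1.49, *Nr5a1* from -0.71 to 0.53, *Tgfbr3l* from -0.11 to 1.11, *Fshb* from -1.0 to 0.81 and *Gnrhr* from -1.15 to 0.33. In the interaction, values ranged for *Lhb* from -1.61 to 1.22, *Cga* from -2.57 to 0.83, *Tgfbr3l* from -1.20 to 0.59, *Gata2* from -2.09 to 0.96, *Gnrhr* from -0.71 to 2.41 and *Nr5a1* from -1.28 to 1.37. In 12w+dox against 6w+dox, values ranged for *Gnrhr* from -1.14 to 0.85. In 12w-res against 6w+dox, values ranged for *Gnrhr* from -1.29 to 0.69, the ratio *Fshb* to *Lhb* from -0.57 to 0.21 and the ratio *Lhb* to *Cga* from -0.26 to 0.13. In 5d -dox against 1d -dox, values ranged for *Gnrhr* from -0.17 to 0.16, *Lhb* from -0.19 to 0.053 and *Fshb* from -0.061 to 0.44. In 1d -dox against 16w +dox, values ranged for the ratio *Fshb* to *Lhb* from -0.13 to 0.89. In 3d -dox against 16w +dox, values ranged for the ratio *Lhb* to *Cga* from -0.23 to 2.16. Depth limits *Lhb*, *Fshb* and *Nr5a1* in the short-term females most, and sex is uneven in all long-term comparisons. The cause of these moves was not tested.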
